A study of Danio rerio with 6 samples.

Results

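The genes described here were the 120 named genes with the brightest microarray signals in control-injected zebrafish embryos at sphere stage, a blastula stage, once ribosomal and other large housekeeping families had been set aside. Each gene was represented by its feature, a probe on the array, with the highest mean over all 6 arrays. Of 14462 named genes, 670 had a symbol with one of the dropped prefixes (*rpl*, *rps*, *psm*, *nduf*, *cox*, *atp5*, *snrp*, *srsf*, *hnrnp*, *sf3*, *slc*, *ccn*, *cdc* and *krt*). From the 13792 genes left, those with the highest mean over the 3 control-injected arrays were kept. The genes were thus selected on their control-injected signals, which are therefore given as a description, with no test.

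Expression was measured with 6 one-colour Agilent arrays in whole embryos of the AB strain at sphere stage, 3 from control-injected and 3 from *ndr1*-injected embryos. Per the labels, each sample was total RNA of 200 embryos, of which 15 µg was made into cDNA labelled with a fluorescent dye. Control embryos had received 1 nl of water and the others 1 nl with 50 pg of mRNA for *ndr1*, which encodes a Nodal ligand. In the study's methods for injections in general, less *ndr1* mRNA and an *egfp* mRNA control are named, and the labels were taken as the source. Each sample pooled all blastomeres with the yolk syncytial and enveloping layers, so fewer cells of a type and less RNA per cell cannot be told apart. Nothing in the labels ties a sample to a clutch, so a p-value covers only the spread among the samples at hand, and that spread may be technical.

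An early zebrafish embryo runs on mRNA and protein that the mother loaded into the egg. At the mid-blastula transition the zygotic genome is switched on, the maternal mRNA begins to be cleared, and sphere stage follows shortly after. In this species the maternal transcription factors Nanog, Pou5f3 and SoxB1 open chromatin and activate many of the first zygotic genes. Cells at this time still divide fast, which draws on stored histones, nucleotides and the machinery of translation.

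Array medians lay between 8.70 and 8.71 on the log2 scale of the deposited normalised signal. Across all features the correlation was between 0.836 and 0.886 for pairs of control-injected arrays and between 0.920 and 0.926 for pairs of *ndr1*-injected arrays. The injected gene *ndr1* had values of 10.61, 10.10 and 10.87 in control-injected and 13.79, 14.85 and 13.89 in *ndr1*-injected embryos, so that the groups did not overlap. Among 11 markers of tissues that form later, 10 were measured, with a median control-injected mean of 8.68, below the median of 9.33 for all named genes. Of these 1, *ins*, lay above that median, with 10.90, 10.98 and 11.41. With 3 arrays per group, their number limits the precision of all means and differences.

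The 120 genes lay within a narrow band at the top of the signal range. Their control-injected means ran from 14.81 to 15.98, with a median of 15.58, a span of 1.18 log2 units. The order within the band is one of brightness, which also depends on the sequence of each probe, and is not an order of transcript number. Brightness of different probes is set side by side below only in this sense.

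Every array also had a shared highest value, here called its ceiling, at which many features stood together. It was 16.26 for control-injected replicate 1, 15.66 for replicate 2 and 16.02 for replicate 3, and 26, 156 and 93 features shared it. On the *ndr1*-injected arrays the ceiling was 16.01, 16.10 and 15.70, shared by 72, 80 and 147 features. A feature at the ceiling has no order relative to the others there, and whether the scanner had saturated was not tested.

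The ceiling cut through the 120 genes. It was reached on all 3 control-injected arrays by 7 genes, on 2 arrays by 30, on 1 array by 26 and on no array by 57. Replicate 2, with the lowest ceiling, held 63 of the genes there, replicate 3 held 37 and replicate 1 held 7. On all 6 arrays 45 genes stayed below it.

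**Figure D1:**
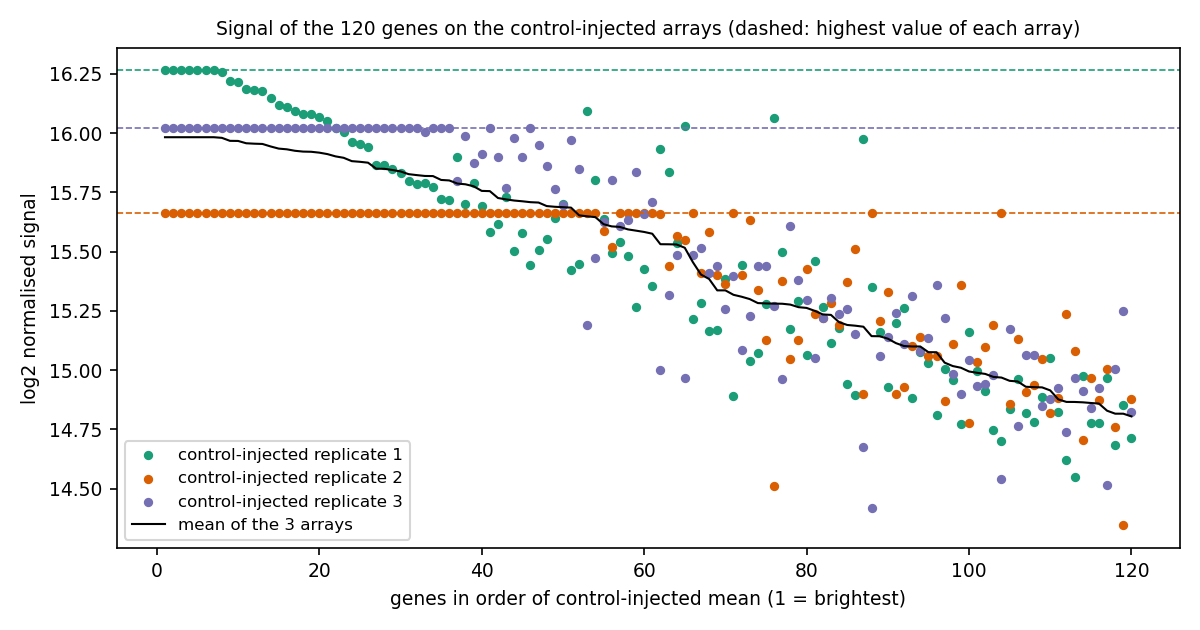
Signal of the 120 genes on each of the 3 control-injected arrays (points, log2 normalised signal) in order of their mean (black line). Dashed lines mark the ceilings of 16.26, 15.66 and 16.02, which replicates 1, 2 and 3 reach for 7, 63 and 37 of the genes.

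The 7 genes at the ceiling throughout had the same values, 16.26, 15.66 and 16.02, and are tied at a mean of 15.98. They were *tbk1*, a kinase of innate immune signalling, *vangl2*, a membrane protein of planar cell polarity, *twf1a*, a twinfilin that binds actin, *fbxl3b*, an F-box protein, *mrpl20*, a subunit of the mitochondrial ribosome, *vps26c*, a subunit of an endosomal recycling complex, and *xkr5b*. The prefix rule thus left a ribosomal protein gene in the list, since *mrpl20* does not begin with *rpl*.

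The next brightest genes reached the ceiling on replicates 2 and 3 and differed only on replicate 1. There *ino80db*, a subunit of the INO80 chromatin remodeller, had 16.26, *wbp4*, a spliceosome protein, 16.22, and the palmitoyltransferase gene *zdhhc5a* 16.22. *rad23ab*, which carries ubiquitinated proteins to the proteasome, had 16.19, *pggt1b*, a subunit of a prenyl-transferring enzyme, 16.18, the cAMP phosphodiesterase gene *pde8a* 16.18 and the acyl-CoA thioesterase gene *acot9.2* 16.15. The remaining genes of the brightest 20, *si:dkey-97a13.12*, *zgc:113102*, *lpar2b*, a lysophosphatidic acid receptor, *creg1*, *zgc:92551* and *ddx11*, a DNA helicase, had between 16.12 and 16.07. Of these 20 genes only 3 fell into any of the 11 function classes used here.

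At the lower end the limit fell in a dense run of values. Just inside it were *ppiaa*, a cyclophilin, with 14.82, *med17*, a Mediator subunit, with 14.82, and *prmt1*, an arginine methyltransferase, with 14.81. Just outside were *sars1*, seryl-tRNA synthetase, with 14.80, *si:dkeyp-53d3.3* with 14.79 and *actb1*, a cytoplasmic actin, with 14.76. The steps across the limit were smaller than the SD of these genes, which was 0.45 for *med17* and 0.15 for *sars1*.

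Features that the rule did not use measured some of the same genes again. More than 1 feature was present for 62 of the 120 genes, or 51.7%, against 35.3% of all named genes. The rule took the brightest feature of a gene, so genes with more features had more chances to enter. For 33 of the 62 genes, or 53.2%, the next feature also lay in the top 5% of all features, with a control-injected mean of at least 12.39. Over all 5098 genes with other features the share was 6.16%, and among the 120 genes ranked next, with means from 13.91 to 14.80, it was 49 of 65, or 75.4%. These shares are counts, and the difference between them was not tested.

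Function class and ceiling both went with this share. Among genes in a function class the next feature was in the top 5% for 25 of 31, or 80.6%, and among genes in no class for 8 of 31, or 25.8%. Among genes below the ceiling on all control-injected arrays it was so for 25 of 34, or 73.5%, and among those at the ceiling on any of them for 8 of 28, or 28.6%. Of the 20 brightest genes 9 had other features, and only those of *fbxl3b* and *vps26c* were in the top 5%. In the 33 genes the gap between the feature used and the next ranged from -0.08 to 3.10 log2 units, with a median of 0.54, and in the other 29 it ranged from 3.44 to 7.80, with a median of 5.55.

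**Figure D2:**
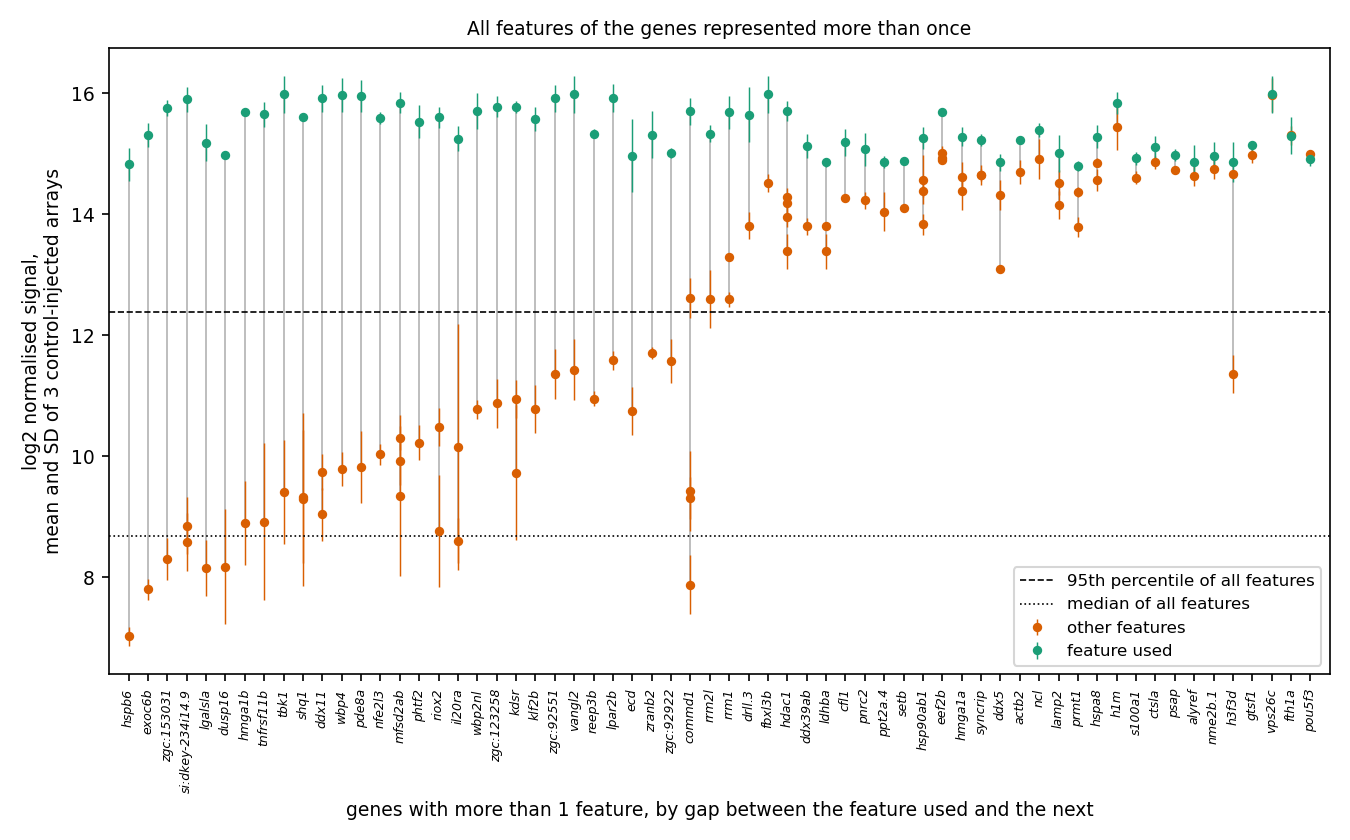
Control-injected mean and SD (3 arrays, log2 normalised signal) of every feature of the 62 genes with more than 1, ordered by the gap between the feature used (green) and the next (orange). Genes on the left have their next feature below the 95th percentile of all features (dashed), 12.39, and those on the right above it. Further features of *commd1* and *h3f3d*, on the right, lie below that line. The dotted line is the median of all features, 8.69.

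Genes whose features were all bright included some of the best known maternal products. *h1m*, the maternal linker histone, had 15.83, 15.66 and 16.02 on its brighter feature and 15.01, 15.64 and 15.69 on the other. The 4 features of *eef2b*, the elongation factor that moves the ribosome along mRNA, had means of 15.69, 15.01, 14.93 and 14.90. *vps26c* had 15.98 and 15.97, so that even a gene at the ceiling could be matched by its second feature.

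For *pou5f3* the feature used had 15.05, 14.82 and 14.88, and the other had 15.07, 14.96 and 14.95. *gtsf1*, a germline gene of the piRNA pathway in other animals, had means of 15.14 and 14.99 on its features. The ferritin heavy chain gene *fth1a*, which stores iron, had 15.30 on both, and *hdac1*, a histone deacetylase, had 5 features between 15.71 and 13.39. These features lay in the top 5% in each case.

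Other genes rested on 1 bright feature alone. The second feature of *tbk1* had 10.11, 9.67 and 8.44, against the ceiling values of its first, and the second feature of *vangl2* had 11.78, 10.85 and 11.68. *ddx11* had 15.92 on the feature used and 9.74 and 9.04 on its others. None of the 3 control-injected arrays gave these dimmer features a value near the bright one. For *tbk1*, *vangl2* and *ddx11*, however, no dim feature was annotated with the same transcript as the bright one. Whether the features of these genes detect the same transcript was not tested.

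The widest gaps between the brightest and the dimmest feature belonged to *commd1*, *hspb6* and *exoc6b*. *commd1*, a protein of endosomal recycling, had 5 features with means of 15.71, 12.61, 9.43, 9.32 and 7.88. *hspb6*, a small heat shock protein, had 14.97, 15.00 and 14.51 on the feature used and 7.07, 7.16 and 6.85 on the other. *exoc6b*, a subunit of the exocyst that tethers secretory vesicles, had a mean of 15.31 on the first and 7.80 on the second. The second feature of *commd1* was still in the top 5%, and those of *hspb6* and *exoc6b* were not. For each of these genes the bright and a dim feature were annotated with the same transcript accession. That was so for 23 of the 29 genes whose next feature lay outside the top 5%. Whether such features detect another transcript, another part of the same transcript or something else was not tested.

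The remaining 58 genes had only 1 feature listed with their symbol, so that no other listed feature measured them again. Features with no listed gene were not searched for them. Of these 20 were in a function class and 35 were at the ceiling on at least 1 control-injected array. The features next to the bright ones on the array grid did not share their brightness, since the 8 neighbours of the genes' features had a median of 8.78, against 8.52 around all features.

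By function, chromatin proteins took the largest share of their class. Of 79 measured chromatin genes 10 were among the 120, or 12.7%, against 0.87% of all genes that the rule could choose. RNA-binding proteins had 8 of 183, or 4.37%, chaperones 5 of 128, or 3.91%, translation factors 3 of 95, or 3.16%, and transcription factors 8 of 273, or 2.93%. Cell cycle and DNA replication genes had 3 of 122, or 2.46%, cytoskeleton 3 of 204, or 1.47%, metabolism 4 of 280, or 1.43%, ubiquitin 2 of 148, or 1.35%, and membrane traffic 5 of 470, or 1.06%. Genes matched to the signalling class had 0 of 315. The classes were assigned by patterns over gene symbols, and 69 of the 120 genes, 0.600% of the 11495 measured genes outside every class, fell into none. The patterns missed genes of the named functions. The signalling genes *tbk1*, *lpar2b* and *rgs5b*, the actin-binding *twf1a* and the transcription factor gene *ets2* were in no class. The share of a class therefore covers only matched symbols, and the 0 does not mean that no signalling gene was bright.

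Chromatin was represented by linker and core histone variants, high mobility group proteins and histone chaperones. Besides *h1m* these were *h3f3a* and *h3f3d*, which encode the replacement histone H3.3, with 15.73 ± 0.15 and 14.87 ± 0.33 (SD, n = 3), and *h2az2b*, an H2A.Z variant, with 14.93 ± 0.14. A further H3.3 gene, *h3f3c*, had 11.17. *hdac1* had 15.58, 15.66 and 15.90, the last 2 replicates being the higher, with only replicate 2 at the ceiling.

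The architectural proteins that bend or bind AT-rich DNA were bright in part. *hmga1b* had 15.64, 15.66 and 15.76 and *hmga1a* 15.28, 15.13 and 15.44. *hmgb2a* had 15.20 ± 0.03, and of its relatives *hmgb2b* had 14.22, *hmgb3b* 13.33, *hmgb1a* 12.14 and *hmga2* 9.22. The second feature of *hmga1b* was dim, at 8.90, whereas the 3 features of *hmga1a* lay between 14.39 and 15.28. *setb*, a histone chaperone and phosphatase inhibitor, had 14.88 ± 0.05, beside 14.32 for its paralogue *seta*, and *ncl*, the nucleolar protein nucleolin, had 15.40 ± 0.12.

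Of the translation factors 3 were among the 120 genes, all for elongation. *eef1a1l1*, which brings aminoacyl-tRNA to the ribosome, had 15.50, 15.66 and 15.98, replicate 2 being at the ceiling. *eef2b* had 15.70, 15.66 and 15.70, with a range of 0.04, the narrowest of all 120 genes, although one of these values was the ceiling of replicate 2. *eef1d*, a subunit of the exchange factor that recharges eEF1A, had 15.54, 15.57 and 15.49, all below the ceiling.

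The other subunits of that exchange factor stood below the limit, with 13.93 for *eef1g* and 13.68 for *eef1b2*. The eEF1A paralogues *eef1a1a* and *eef1a2*, the latter known from muscle and neurons in mammals, had 8.46 and 7.18, below the median of all genes. Of these 3 eEF1A genes only *eef1a1l1* was in the bright band.

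Among cytosolic chaperones 1 gene of each family was in the band. *hspa8*, the constitutive HSP70, had 15.07, 15.34 and 15.44, and its other features had means of 14.85 and 14.57. The heat-inducible *hsp70l* had 8.06, 7.04 and 8.24, and *hspa8b* had a mean of 8.10. *hsp90ab1*, the constitutive HSP90, had 15.26 ± 0.18, with 8.96 and 9.42 for the paralogues *hsp90aa1.1* and *hsp90aa1.2*. These relatives lay between 7.78 and 9.42, near or below the median of all genes.

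Of the other chaperones, *fkbp9*, a prolyl isomerase of the endoplasmic reticulum, had 15.97, 14.90 and 14.68, and was high on replicate 1 only. *ppiaa* had 14.69, 14.76 and 15.00.

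RNA-binding genes covered splicing, export, decay and storage of mRNA. *syncrip* had 15.23 ± 0.10, *ddx39ab*, a helicase of mRNA export, 15.13 ± 0.20, its partner *alyref* 14.87 ± 0.28 and the helicase gene *ddx5* 14.86 ± 0.14. The cold-inducible RNA-binding protein genes *cirbpb* and *cirbpa* had 15.03 ± 0.18 and 14.93 ± 0.12, and *rbm4.3* had 15.10 ± 0.22. The class also took in *ddx11* by its name, although that helicase acts on DNA. The second feature was in the top 5% for *syncrip*, *ddx39ab*, *alyref* and *ddx5*.

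Of the factors that activate the zygotic genome, *nanog* and *pou5f3* were among the 120. *nanog* had 15.22, 15.66 and 15.49, replicate 2 being at the ceiling. *sox19b*, the maternal SoxB1 gene, had 13.95, 14.33 and 13.81, below the limit but higher than 98.3% of all genes. The other SoxB1 genes, *sox3* with 12.10, *sox19a* with 12.10 and *sox2* with 7.69, lay further down.

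The remaining genes of the transcription factor class were mostly at the ceiling on at least 1 array. The zinc finger genes *znf367* and *znf1174* had 15.80 and 15.78 on replicate 1 and stood at the ceiling on replicates 2 and 3. *atf4a*, a factor of the amino acid stress response, had 15.69 ± 0.16, *klf2b* had 15.58 ± 0.19 and *znf970* had 15.35, 15.66 and 14.42. The other feature of *klf2b* had a mean of 10.78, and the others just named had 1 feature each.

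Cell cycle genes supplied nucleotides and the control of licensing. *rrm1* and *rrm2l*, the large and a small subunit of ribonucleotide reductase, which makes deoxynucleotides, had 15.69 ± 0.27 and 15.34 ± 0.15. The p53-linked small subunit gene *rrm2b* had 6.95 ± 0.73. *gmnn*, geminin, which holds back replication licensing, had 15.50, 15.38 and 14.96, whereas its target *cdt1* had 8.92, 8.47 and 8.74. The other licensing and replication genes set beside them were *pcna* with 13.95, *orc6* with 13.63, and *orc1* to *orc5*, which lay between 9.27 and 11.73.

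Cyclins, which also belong to the fast cleavage cycles, were dropped by their prefix. Of 35 genes with *ccn* names, 5 reached the level of the dimmest of the 120 genes, led by *ccnb1* with 15.60 and *ccna2* with 15.49.

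**Figure D3:**
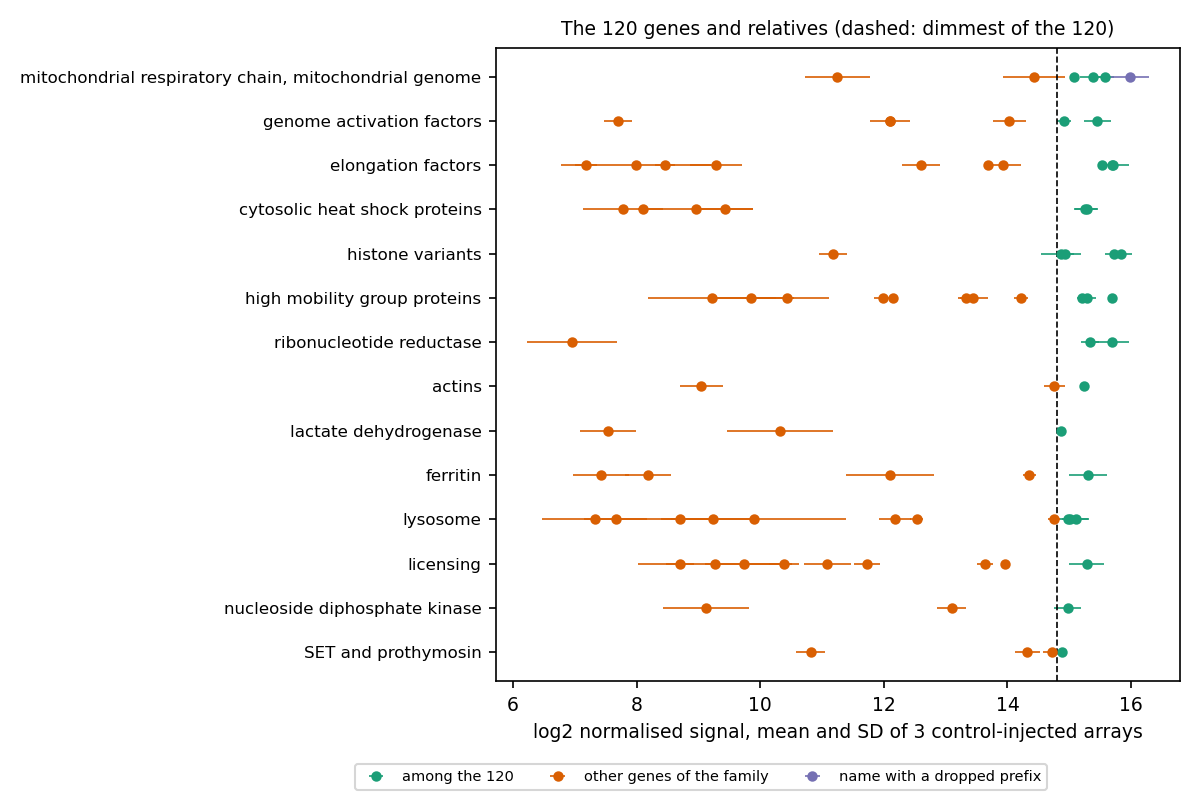
Control-injected mean and SD (3 arrays, log2 normalised signal) of the 120 genes and of other measured genes in 14 families, with the limit of 14.81 dashed. In each family the dimmest measured relative lies at 11.25 or below, while 1 or more genes lie above the limit.

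The cytoskeleton class held *actb2*, a cytoplasmic actin, *cfl1*, the actin-severing protein cofilin, and *marcksl1b*, a MARCKS-like protein at the membrane. *actb2* had 15.27, 15.22 and 15.22, a range of 0.05. Its near-identical paralogue *actb1* missed the limit, with 14.66, 14.66 and 14.95, and the muscle actin gene *actc1b* had 9.04. The probes of such close paralogues, and of the H3.3 and cold-inducible genes, may detect each other's transcripts, so their separate levels are uncertain.

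Metabolism was represented by *fth1a*, *nme2b.1*, a nucleoside diphosphate kinase, *ldhba*, lactate dehydrogenase B, and *acot9.2*. *ldhba* had 14.86 ± 0.07, against 10.31 ± 0.86 for *ldha* and 7.54 ± 0.46 for *ldhbb*. *nme2b.1* had 14.97 ± 0.22, *nme2b.2* 13.10 and *nme2a* 9.12. One gene of each of these families stood in the band.

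The membrane traffic class held 3 lysosomal genes. *ctsla*, cathepsin L, had 15.20, 14.90 and 15.24, and it was the only one of 5 measured markers of the yolk syncytial layer among the 120 genes. Of the other markers, *slc40a1*, with 9.17, had a dropped prefix and could not enter. *lamp2*, a lysosomal membrane protein, had 15.01 ± 0.31 and *psap*, the precursor of saposins, 14.98 ± 0.10. The 8 other lysosomal genes set beside them lay between 7.33 for *ctsbb* and 14.75 for *ctsba*, cathepsin B, just below the limit. *lgalsla*, a galectin-like gene, had 15.19 ± 0.31, and *zgc:92922*, named *sec61b* in the current annotation and a subunit of the channel into the endoplasmic reticulum, 15.02 ± 0.08. Their other features, annotated with the same transcripts, were dim, with means of 8.15 for *lgalsla* and 11.57 for *zgc:92922*, so these levels rest on 1 feature each.

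Among genes outside every class were 3 encoded by the mitochondrial genome. *ND2* had 15.42, 15.66 and 15.66, *ND3* 15.16, 15.58 and 15.41, and *ND1* 15.03, 15.06 and 15.14. All encode subunits of complex I, as do *ND5* and *ND6*, which had 14.43 and 11.25. *COX1*, of complex IV, was at the ceiling on all 3 arrays and was dropped by its prefix.

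The polyubiquitin gene *ubb* had 15.85 ± 0.18, with replicates 2 and 3 at the ceiling, and *cops6*, a subunit of the COP9 signalosome, 15.84 ± 0.18. Some bright genes are known mainly from later tissues. *bglap*, which encodes the bone matrix protein osteocalcin, had 15.17, 15.05 and 15.61 on its 1 feature. *tnfrsf11b*, which encodes osteoprotegerin, had 15.45, 15.66 and 15.85 on the feature used and 9.56, 7.42 and 9.77 on the other. The adhesion gene *nrcamb*, named for neurons, had 16.05, 15.66 and 16.02 on 1 feature, the last 2 being ceilings. No second feature supported these last levels, and what their features detect was not tested.

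Of the genes set aside by prefix, 15 of 670, or 2.24%, reached the dimmest of the 120, against 0.87% of the genes that the rule could choose. Among cytoplasmic ribosomal protein genes these were 1 of 45 *rpl* genes, or 2.22%, namely *rpl12* with 15.25, and 0 of 38 *rps* genes. Such counts are too small to set these genes apart from the share of 0.87%. The *hnrnp* genes, which encode nuclear RNA-binding proteins, had 4 of 21. By count, dropping the prefixes therefore removed more cyclins and RNA-binding genes from the top of the list than ribosomal protein genes.

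Markers of cell types and stages were set beside the band. The rule kept 0.87% of the genes it could choose, so a count of 0 in such short lists is near that share. The 9 measured markers of the maternal and oocyte list all lay above the median of all genes and had a median of 12.94, and *h1m* was among the 120. The 9 early zygotic genes had a median of 12.40 and 0 in the list. The brightest were *blf* with 13.78, *vox* with 13.24 and *tbx16* with 12.98. The dimmest were *sox32* with 9.73 and *her7* with 8.72, the latter below the median of all genes. The 9 markers of the enveloping layer, the outer epithelium, had a median of 12.12, with 0 in the list. Its keratin markers, *krt4*, *krt5*, *krt8*, *krt18a.1* and *krt17*, were dropped by prefix and could not enter. Of all 21 *krt* genes, 0 reached the dimmest of the 120. The 6 germ plasm genes, maternal transcripts of the future germ cells, had a median of 11.34, also with 0 in the list. The 5 markers of the yolk syncytial layer had a median of 10.56 and ran from 7.67 for *gata6* to 15.11 for *ctsla*. The 4 liver genes measured had 8.76, and *vtg2*, a vitellogenin made in the mother's liver, had 8.10.

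**Figure D4:**
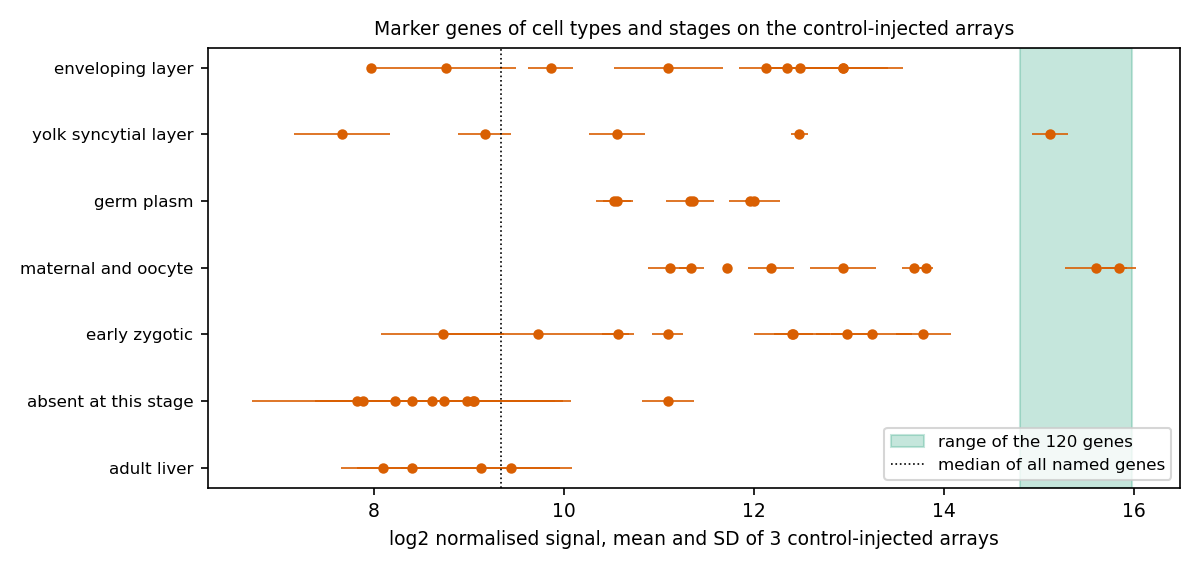
Control-injected mean and SD (3 arrays, log2 normalised signal) of marker genes by cell type or stage, with the range of the 120 genes shaded and the median of all named genes, 9.33, dotted. *h1m*, *ctsla* and the dropped *ccnb1* are the 3 markers within the shaded range.

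Whether the 120 genes varied less than others between control-injected samples depended on the processing. In the deposited values their median SD was 0.19, against 0.40 for all named genes, and 0.18 for the 57 genes below the ceiling on all 3 arrays. With the local deviation by array position subtracted it was 0.43, against 0.28 for all named genes, so that the order turned. An SD under 0.1 was found for 20 genes. Genes at a ceiling carry the differences between ceilings, up to 0.60 between replicates 1 and 2, as their spread.

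The narrowest ranges belonged to *eef2b*, *actb2* and *ets2*, a transcription factor gene with 15.64, 15.59 and 15.62. The widest belonged to *otud4*, a deubiquitinase gene, with 16.06, 14.51 and 15.27, *fkbp9*, *znf970*, *ecd* with 14.70, 15.66 and 14.54, and *rgs5b*, a regulator of G protein signalling, with 16.03, 15.55 and 14.97. These 5 were the only genes with a range over 1, and replicate 3 was the lowest for all but *otud4*, which was lowest on replicate 2. Replicate 1 gave the highest value for 41 genes, replicate 2 for 28 and replicate 3 for 51.

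Most of the genes were also among the brightest on the *ndr1*-injected arrays, which did not rank them though they took part in the choice of feature. Of the 120 genes 108 were also among the 120 brightest there, and all were within the first 240, the lowest at rank 203. At the ceiling on all 3 *ndr1*-injected arrays were 25 genes, which were tied there. Ranks within the list moved, for example from 49 to 79 for *hmga1b* and from 44 to a tied 1 for *eef1a1l1*.

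The comparison of both groups asked whether *ndr1* changed these abundant signals, and no difference was called. With limma over all 14462 genes, 0 of the 120 genes were higher or lower at an adjusted p below 0.05, against 3 higher (0.0207%) and 0 lower (0.0%) among all genes. The study names a cutoff of 0.02 and does not say whether its p-values were adjusted. At an unadjusted limma p of at most 0.02, 0 of the 120 passed, against 2.72% of all genes in either direction, 1.71% higher and 1.02% lower. At an unadjusted limma p below 0.05 1 did, against 6.94% of all genes. The control values entered the choice of genes, so that a high control value favours a lower value in the other group. A value at the ceiling can also hide a difference. Even the injected gene *ndr1*, with a difference of 3.65 ± 0.37 log2 units, was not called, at a limma adjusted p of 0.066. The missing calls therefore do not show that the groups were alike.

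The differences were small. The median, *ndr1*-injected minus control-injected, was -0.04, against 0.01 for all genes, and 116 of the 120 lay within 0.5 log2 units of 0. The mean was higher for 48 genes and lower for 72. The lower genes include the 7 at the ceiling on all 6 arrays, whose shared difference of -0.044 is that of the ceilings alone. The median standard error of a difference was 0.25, against 0.32 over all genes. The 3 *ndr1*-injected samples were all higher than every control for 9 genes, or 7.50%, against 8.1% of all genes, and all lower for 10 genes, or 8.33%, against 5.86%. For the other 101 genes the groups overlapped.

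The smallest p belonged to *znf970*. Its values were 15.35, 15.66 and 14.42 in control-injected and 14.24, 13.99 and 14.22 in *ndr1*-injected embryos. All *ndr1*-injected values lay below the lowest control value, by a mean difference of -0.996 ± 0.35 (SE, n = 3 per group) with a limma adjusted p of 0.712. The control value of 15.66 was the ceiling of replicate 2.

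*exoc6b* had 15.44, 15.40 and 15.08 against 14.64, 15.07 and 14.57, a difference of -0.55 ± 0.25. *reep3b*, of a family that shapes the endoplasmic reticulum, had 15.39, 15.36 and 15.26 against 14.95, 14.85 and 14.87, a difference of -0.45 ± 0.20. Both groups were apart on these features, with a limma adjusted p of 0.712 each. The other feature of *exoc6b* had 7.84, 7.96 and 7.60 against 8.06, 8.11 and 7.95. That of *reep3b* had 11.04, 11.01 and 10.81 against 11.40, 10.96 and 11.24. On these other features the *ndr1*-injected mean was the higher, and the groups overlapped.

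*hmga1a* had 15.28, 15.13 and 15.44 against 16.00, 15.57 and 15.70, a difference of 0.48 ± 0.23, the highest of the 120. Its other features had 14.48, 14.90 and 14.47 against 15.56, 14.73 and 13.52, and 14.69, 14.05 and 14.41 against 14.74, 14.41 and 14.26, and both overlapped between groups. Its paralogue *hmga1b* had 15.64, 15.66 and 15.76 against 15.09, 15.54 and 15.24, lower on every *ndr1*-injected array. *cirbpb* had 15.00, 14.87 and 15.22 against 15.61, 15.30 and 15.56, a difference of 0.46 ± 0.23, and its paralogue *cirbpa* was likewise higher on every *ndr1*-injected array. None of these passed, the limma adjusted p being 0.728 for *hmga1a* and 0.735 for *cirbpb*.

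For the genome activators *nanog* and *pou5f3* no shift beyond the overlap of the groups was seen. *nanog* had 14.85, 15.75 and 15.34 in *ndr1*-injected embryos, which reached below and above its control values of 15.22, 15.66 and 15.49. *pou5f3* had 14.85, 15.05 and 14.81, against 15.05, 14.82 and 14.88 in the controls. *h1m* had 15.17, 16.10 and 15.70, of which the last 2 were the ceilings of their arrays.

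**Figure D5:**
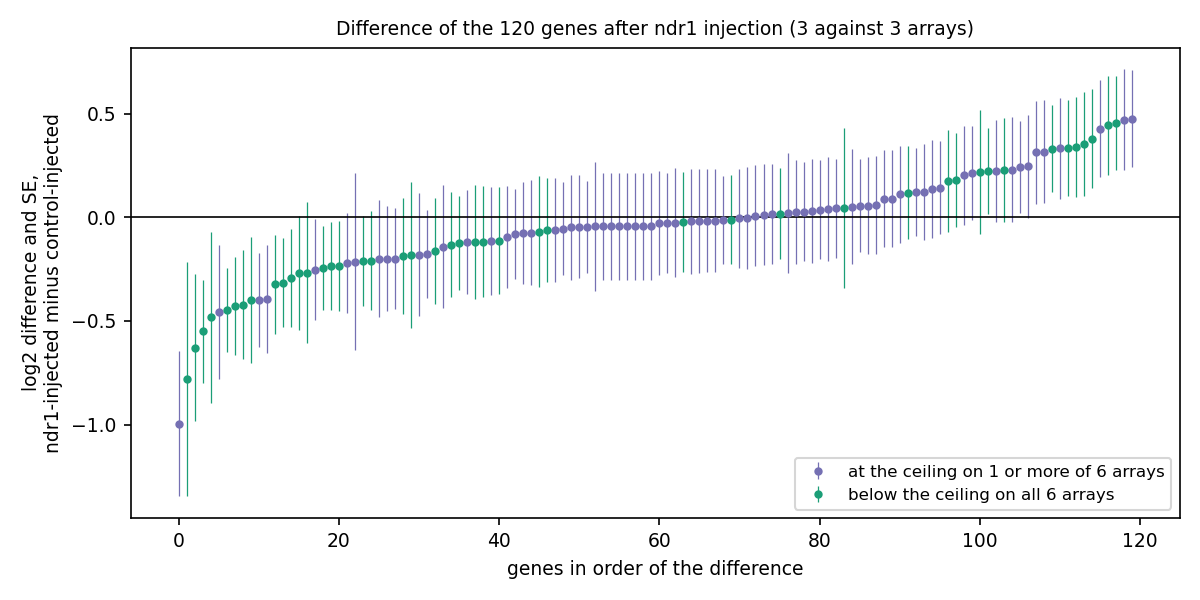
Difference of each of the 120 genes between *ndr1*-injected and control-injected embryos (log2 scale, bars are standard errors of the limma fit, 3 arrays per group), in order of size. The differences run from -0.996 for *znf970* to 0.48 for *hmga1a*, and 116 lie within 0.5 of 0.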

How the data were processed

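Samples were grouped by their titles. The values were deposited as log2 signals, 1 for each feature of an array, after qspline normalisation of scanned Agilent arrays by the authors. For background correction, detection and saturation flags, the method is not given in the sources used here. The log2 scale was read from the values. No normalisation was added. Of 45220 features, 21061 were listed with 1 gene symbol in the platform annotation, 0 with several, and 24159 were not listed. Symbols of that annotation were used to choose the genes. Current names came from the GRCz12tu RefSeq annotation by Entrez number for 20133 features and by accession for 408, and 520 kept the listed symbol. Prefixes were matched without regard to case, which dropped *COX1*. With lower case only, it would enter and *prmt1* would leave.

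The fit was by limma 3.58.1 (lmFit, eBayes; R 4.3.3) with group as the only term, two-sided, with Benjamini-Hochberg adjustment over all 14462 genes, called at an adjusted p below 0.05. It was checked on simulated data. Where several probes named a gene, the one with the highest mean over all 6 arrays was used.

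Named genes are the 20 brightest, the 3 brightest of each class, the 3 on each side of the limit, the 5 widest and 3 narrowest ranges, the 5 smallest p and the 3 largest gaps between features. The other genes named, the family members set beside the 120, the share of next features in the top 5% and the comparison with the next 120 genes were chosen after values had been seen. The genes, classes and marker lists were chosen with earlier results of these data known. Replicate numbers of both groups were not taken as pairs in the main fit, and the labels do not say whether they are. The alternatives were a replicate block, quantile normalisation, median centring, a trend with robust variance, array weights, subtraction of array position on a grid 85 columns wide with a window of 9, each array left out, a filter on the dimmest 25% of genes, all features tested, and other selections. Probe sequences and genome positions were not used.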

Additional observations from a re-analysis of the deposited data

How the results depend on the processing

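No gene among the 120 was called under any of the 16 alternatives, including the intensity trend with robust variance, which called 27 of all genes. The median difference lay between -0.11 and 0.04. With the replicate number as a block, 0 genes were called and the median difference was -0.04, and no other call changed. Same-numbered samples of both groups had correlations of their deviations of 0.17, -0.10 and 0.02, and the other pairs lay between -0.22 and 0.21. These values gave no sign of pairing by number, but with 3 samples per group they cannot exclude it.

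Which genes make up the list depended on the feature. With the dimmest feature of each gene, an alternative added after the data had been seen, 78 of the 120 remained. With the median over features 86 remained, and of the 34 that left 24 were in no class. Neither selection could replace the feature of the 58 genes with only 1, so both counts bear on the 62 genes with more. The mean over all arrays kept 114, the *ndr1*-injected arrays 108, quantile normalisation 119, array position subtracted 113, updated symbols 120 and each control-injected array left out 116 to 117. The median SD of the genes over control-injected arrays, 0.19, became 0.43 with array position subtracted, when that of all genes fell from 0.40 to 0.28, and 0.15 to 0.22 with each array left out. The cause was not tested. Control-injected means of named genes moved by more than their SD in 19 cases and by less in 359. The differences of *znf970*, *exoc6b*, *reep3b*, *hmga1a* and *cirbpb* kept their direction in each alternative run, over a range from -1.36 to 0.57. With array position subtracted all 5 became smaller, at -0.70, -0.31, -0.21, 0.26 and 0.33 in that order. In the main fit they were -0.996, -0.55, -0.45, 0.48 and 0.46. On control-injected replicate 1, deviations of features from their median over all arrays had a correlation of 0.64 between adjacent rows of the grid. Values at a ceiling limit what these arrays can show for the brightest genes.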

Other observations

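Taking the median over a gene's features in place of the brightest one brought 34 genes into the list of 120, of which 27 had 1 feature and 16 were in a function class. The highest of them were *actb1* with 14.76, *ctsba* with 14.75, *cldnd*, a claudin gene of epithelial junctions, with 14.75, and *ptmab*, a prothymosin gene, with 14.72. Others were *gapdh*, a glycolytic enzyme gene, with 14.58, *ctnnb2*, a maternal β-catenin gene, with 14.47, *ran*, the GTPase of nuclear transport, with 14.34 and *hspa5*, the HSP70 of the endoplasmic reticulum, with 14.28. Among the 120 genes ranked 121 to 240 by the original rule, 60 were in a function class, against 51 of the first 120.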
